A study of Glycine max and Zea mays with 6 samples.

Results

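Trimethylation of lysine 36 of histone H3 (H3K36me3) is laid down over the bodies of genes while they are transcribed, and trimethylation of lysine 4 (H3K4me3) marks their 5′ ends. In plants H3K36me3 is known to lie mostly in the 5′ and middle parts of the gene body, where it is placed by SDG8-type methyltransferases in Arabidopsis. Acetylation of lysine 56 (H3K56ac) is a mark of newly incorporated histone H3 and is found near active gene starts. An H3K36me3 region therefore usually runs from a start site that carries H3K4me3 and H3K56ac, called the narrow marks below, into the gene.

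The regions described here are the H3K36me3 regions of soybean leaf that lay on the 20 chromosomes, were shorter than 10 kb and overlapped no H3K4me3 peak and no H3K56ac peak by even 1 bp. They are called bare regions below. There were 6723 of them among 32245 H3K36me3 regions in all. Of the 31419 regions under 10 kb on the chromosomes they made up 21.4%, and they held 15.7 Mb of the 99.4 Mb under H3K36me3. They were chosen by the called positions of the 3 marks and by their own length, so their lack of narrow marks and their distance from narrow peaks are descriptions and not findings.

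The 3 peak lists came from chromatin immunoprecipitation and sequencing (ChIP-seq) of untreated Glycine max, accession William82, grown in soil for about 10 days at 25 °C in days with 16 h light and 8 h dark. Leaves 2 and 3 were taken and fixed with 1% formaldehyde. Antibodies against H3K36me3, H3K4me3 and H3K56ac gave 1 library per mark, so the values below have no replicates and no test between samples was possible. Leaf tissue holds many cell types, and a region and a peak at the same gene need not come from the same cells.

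The lists hold positions alone, so read depth is unknown and a place without a peak is a place without a call. Intervals in brackets are exact Clopper-Pearson 95% intervals, which cover counting error only. Neighbouring regions are not independent. The H3K4me3 list held 51142 peaks on the chromosomes and the H3K56ac list 60424. The leaf gene RBCS1, the small subunit of Rubisco, had 87.8% of its length under H3K36me3, beside H3K4me3 and H3K56ac, and no bare region.

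Bare regions were short. Their median length was 1800 bp (quartiles 1000 and 3200 bp), against 2600 bp (quartiles 1600 and 3800 bp) for the 24696 regions under 10 kb that carried a narrow mark. Very short calls were common among them: 708 bare regions (10.5%) were 400 bp or less, compared with 1.66% of the regions with a narrow mark. A longer region has more room to meet a narrow peak, so the rule favours short regions. The length limit left out 205 longer regions without narrow marks, which were 26.4% of the 776 regions of 10 kb or more. At the limit itself, 14 bare regions measured 9800 bp and 12 regions without narrow marks measured 10000 bp.

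They lay close to other H3K36me3. The nearest other H3K36me3 region was a median 1000 bp away (quartiles 800 and 1600 bp), whereas for regions with a narrow mark it was 3400 bp away (quartiles 1400 and 8600 bp). No gap in the H3K36me3 list was below 800 bp, and 2543 bare regions (37.8%) sat at exactly that smallest distance from a neighbour. Within 1 kb of another region lay 3862 bare regions (57.4%, interval 56.3 to 58.6). The share was 17.3% (interval 16.9 to 17.8) for regions with a narrow mark and 25.9% over all regions under 10 kb. At less than 5 kb the shares were 96.5% and 61.1% for bare regions and for those with a narrow mark. Where a gene has a region with a narrow mark, further H3K36me3 counts as bare only if a gap splits it off. The rule therefore favours a near neighbour for bare regions, and gene length was not matched in these comparisons.

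The spacing of bare regions was much the same in all length classes. Among bare regions the share with a neighbour within 1 kb was 56.1% under 1 kb, 58.1% from 1 to under 2 kb, 58.5% from 2 to under 4 kb and 56.3% from 4 to under 10 kb. For regions with a narrow mark the same classes gave 24.4%, 19.5%, 15.8% and 15.6%. The 979 regions with exactly 1 of the narrow marks lay between the 2 groups, with 38.5% (interval 35.4 to 41.6).

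Joining of neighbours changes the number of bare regions, since so many sit at the smallest gap. When regions at most 1000 bp apart were treated as 1 region, 3266 bare regions were left in place of 6723. The rest had become part of a region with a narrow mark, of another bare region or of a region past the length limit. The number also depends on which calls are counted: it was 10571 when the shorter 50% of the narrow peaks were left out, and 2531 when the shorter 50% of the H3K36me3 regions were. The share within 1 kb of another region was 46.3% and 28.9% in these cases.

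**Figure D1:**
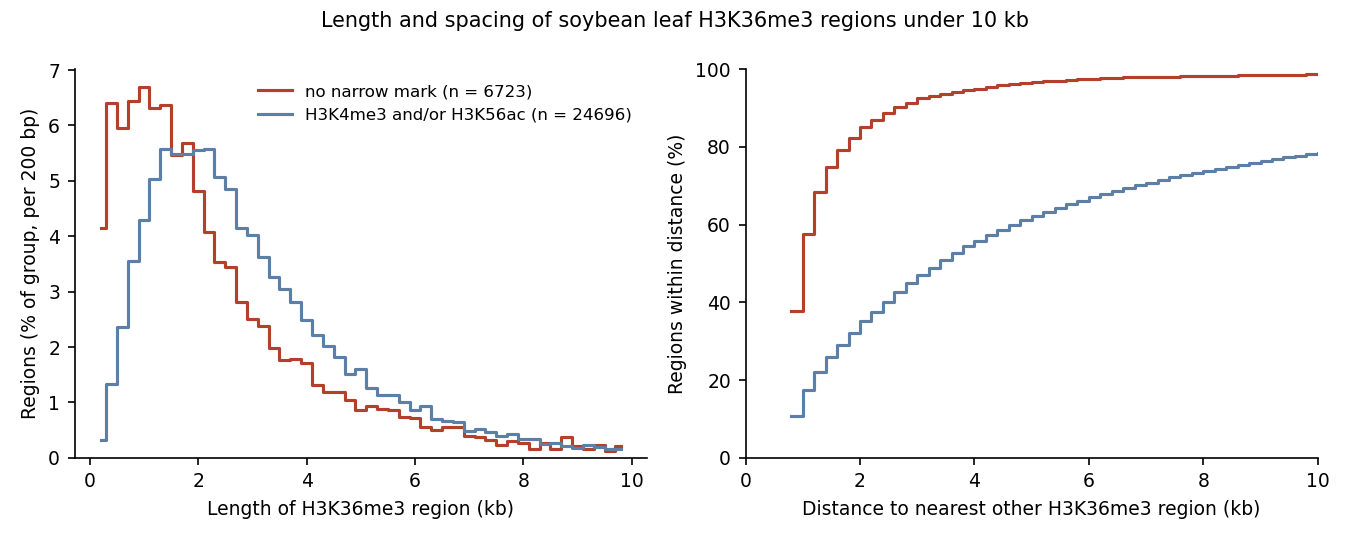
Left, length of H3K36me3 regions under 10 kb in steps of 200 bp, as a percentage of each group. Right, cumulative percentage of regions whose nearest other H3K36me3 region lies within the distance on the x axis. Red lines are the 6723 regions without a narrow mark, with a median length of 1800 bp and 57.4% within 1 kb of a neighbour, and blue lines are the 24696 regions with H3K4me3 or H3K56ac, with 2600 bp and 17.3%.

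The neighbour of a bare region was itself bare more often than that of a marked one. The nearest other region was bare for 2567 bare regions (38.2%, interval 37.0 to 39.4) and for 24.0% of regions with a narrow mark (interval 23.4 to 24.5). It carried a narrow mark for 4047 bare regions (60.2%) and for 75.5% of the others. Less than 5 kb from H3K36me3 on both sides lay 3314 bare regions (49.3%). Regions with a narrow mark had H3K36me3 that near on both sides in 16.0% of cases.

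H3K4me3 was farther off than the neighbouring H3K36me3. Its nearest peak lay a median 3032 bp from a bare region (quartiles 1676 and 6117 bp), and the nearest H3K56ac peak 2893 bp (quartiles 1606 and 5922 bp). Within 1 kb there was H3K4me3 at 541 bare regions (8.05%, interval 7.41 to 8.72), where 79.2% of all regions under 10 kb had it within 1 kb or overlapping. The rule fixes the direction of that difference. H3K4me3 was 10 kb or more away from 835 bare regions (12.4%).

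The nearest H3K4me3 peak mostly sat on another H3K36me3 region. This was so for 5935 bare regions (88.3%, interval 87.5 to 89.0). For 4521 of them it was the region next in line, and for 1414 it was a region 2 or more steps away. For the remaining 788 (11.7%) the nearest H3K4me3 peak lay on no H3K36me3 region. The share of all H3K4me3 peaks that lie on H3K36me3 is not given here. These values therefore describe bare regions without a comparison.

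Close calls at the edge of the rule were few. A narrow peak came within 200 bp of 21 bare regions, at 18 bp in the closest case, Gm08:3806001-3808800, and at 26, 32, 45 and 67 bp in the next 4, all of them H3K56ac. Just outside the rule, the smallest summed overlaps with narrow peaks were 14 bp at Gm18:47412801-47422000 and 21, 22, 28 and 52 bp after that. At most 100 bp of overlap was seen at 22 regions under 10 kb. Positions are counted from 1 on the chromosomes named in the files, and the sources used here do not give their build.

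Bare regions lay in genes. An annotated gene of any type overlapped 6663 of them (99.1%, interval 98.9 to 99.3), against 98.0% of regions with a narrow mark and 98.3% over all regions under 10 kb, so this share was near the background. The difference was in how they lay there. Of the 6663, 6300 (94.6%, interval 94.0 to 95.1) lay wholly inside the gene they overlapped most, while 26.9% of the regions with a narrow mark did (interval 26.4 to 27.5). The rule takes out regions that overlap H3K4me3 or H3K56ac, which lie at gene ends, and so fixes part of this difference.

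The gene of a bare region nearly always held more H3K36me3. A further H3K36me3 region was in the same gene for 6425 bare regions (95.6%) and for 25.7% of regions with a narrow mark (interval 25.2 to 26.3). That further region carried a narrow mark for 6249 bare regions (92.9%, interval 92.3 to 93.6). Such a companion was there for 27.3% of all regions under 10 kb, bare ones included, and for 9.39% of regions with a narrow mark. A bare region needs any marked region in its gene, whereas a marked region needs a further marked one. The definition therefore fixes part of this difference. For bare regions the share hardly moved with their length, from 91.1% under 1 kb to 95.1% from 4 to under 10 kb. Without the shorter 50% of the narrow peaks it was 53.2%, and without the shorter 50% of the H3K36me3 regions 52.4%. The rule also favours the 95.6% against 25.7%, since H3K36me3 joined to a region with a narrow mark is not bare. Gene length was not matched. Protein-coding genes with a bare region had a median of 7936 bp, and other such genes with H3K36me3 had 3904 bp.

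In total 4563 protein-coding genes were overlapped by a bare region. They were 9.75% of the 46816 protein-coding genes on the chromosomes and 19.1% of the 23935 with any H3K36me3. A single bare region was found in 3405 of them (74.6%), 2 in 748 and 3 or more in 410. H3K4me3 lay within 1 kb of an end in 94.9% (interval 94.3 to 95.6) and H3K56ac in 94.7%, against 98.5% and 97.6% of the 19372 genes with H3K36me3 but no bare region. Among genes without H3K36me3 these shares were 47.2% and 40.8%. The gap was wide in short genes, and the rule favours it there. In a gene under 2 kb the windows of 1 kb at the ends cover the whole gene, so a bare region overlaps them. Under 2 kb, 40.5% of the 42 genes with a bare region had H3K4me3 at an end against 98.0% of the others, and from 2 to under 4 kb 83.3% of 264 against 99.3%. From 4 kb on the shares were 94.6 to 97.5% in the length classes with a bare region and 89.5 to 98.5% without.

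Along the gene, most bare regions lay past the middle, as read from the H3K4me3 end. The gene table gives no strand, so each protein-coding gene of at least 2000 bp with H3K4me3 within 1 kb of a single end was read from that end. This placed 5730 bare regions and 17043 regions with a narrow mark. The midpoint of a bare region lay a median 64.8% of the way along the gene (interval 64.1 to 65.4, quartiles 50.3 and 76.4%), and that of a region with a narrow mark 31.4% of the way (quartiles 16.6 and 41.8%). Past the middle lay 75.3% of bare regions (interval 74.1 to 76.4) and 9.31% of the others. The rule keeps bare regions off the H3K4me3 end, so an offset to the far side was given beforehand.

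How far they reached was also set in part, since the rule bars overlap with H3K56ac at the far end. A gap of at least 800 bp also parts a bare region from a marked one before it. The bin from 70 to 80% of the gene length was the fullest, with 1208 midpoints (21.1%), followed by the one from 60 to 70% with 1164 (20.3%). The last bin, from 90% on, held 264 (4.61%), of which 35 midpoints (0.611% of all) lay beyond the far end. With genes read from the end with H3K56ac the median place was 65.1%, and in genes with no other gene within 2 kb it was 64.2%. Without the shorter 50% of the H3K36me3 regions it was 65.2%. The median place moved to 55.5% without the shorter 50% of the narrow peaks and to 68.0% after joining at 1000 bp.

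**Figure D2:**
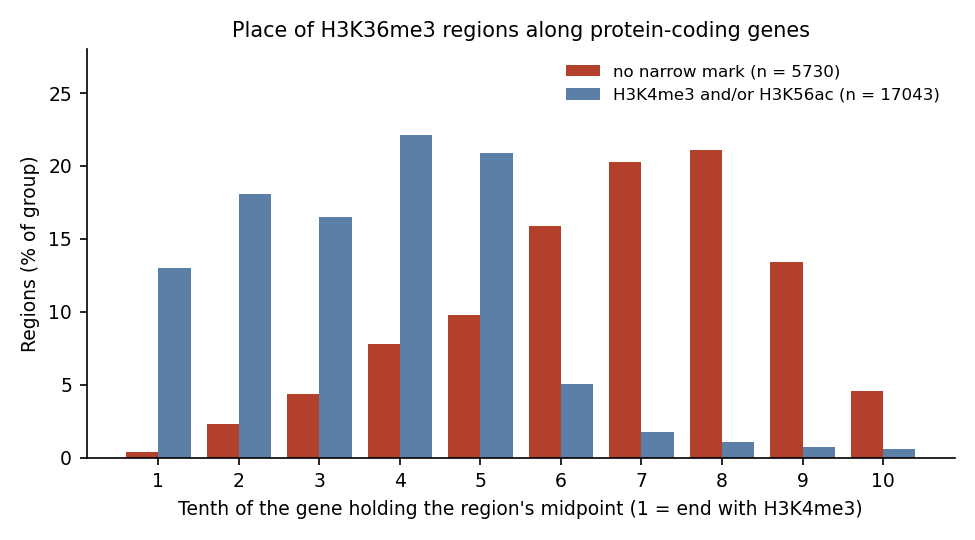
Percentage of H3K36me3 regions under 10 kb whose midpoint falls in each 10% of a protein-coding gene, counted from the end with H3K4me3. Red bars are 5730 regions without a narrow mark, fullest in the 8th bin at 21.1%, and blue bars are 17043 regions with a narrow mark. Midpoints beyond the far end are in the last bin.

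The order of regions was read in genes that held both kinds. In 3842 genes with H3K4me3 at a single end, a bare region and a region with a narrow mark, the first H3K36me3 region from the H3K4me3 end overlapped H3K4me3 in 3829 (99.7%, interval 99.4 to 99.8). The last region was bare in 3686 (95.9%, interval 95.3 to 96.5). In place 3 from that end 89.7% of 1143 regions were bare, and in place 4 88.1% of 412. The choice of genes sets much of these figures, because a gene entered only with both kinds of region and was read from H3K4me3. In a gene with 2 regions, a marked first one leaves the bare one last by selection.

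Gaps between the regions of a gene stayed narrow throughout. The gap before a bare region, on its H3K4me3 side, had a median of 1000 bp (quartiles 800 and 1600 bp), and the gap to a following region in the same gene had 1200 bp (quartiles 800 and 2000 bp). Later bare regions were not shorter: their median length was 1800 bp in place 2, 2000 bp in place 4 and 2800 bp in place 6 or later, which only genes with at least that many regions have. Where a bare region was the last of its gene, H3K36me3 stopped a median 1069 bp before the far end (quartiles 611 and 1818 bp), and it ran past that end in 294 of 3686 genes.

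**Figure D3:**
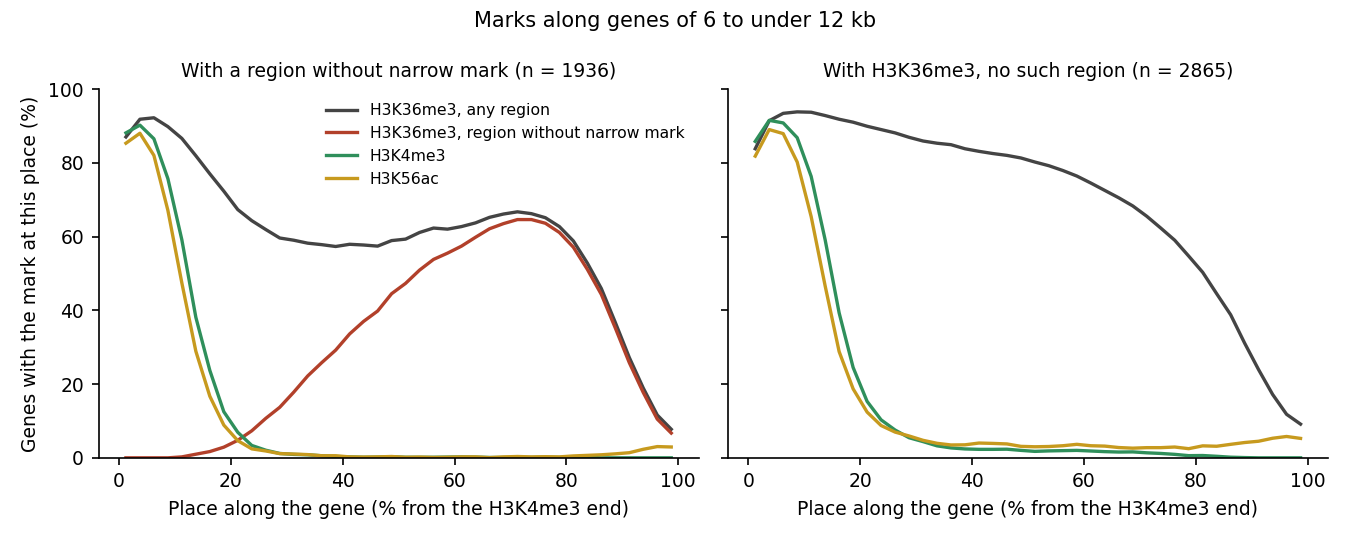
Percentage of protein-coding genes of 6 to under 12 kb that have each mark at 40 places along the gene, read from the end with H3K4me3. Left, 1936 genes with a bare region (red line), where H3K36me3 falls to 57.9% at 41.25% of the gene and is 66.7% at 71.25%. Right, 2865 genes with H3K36me3 and no bare region, where it is 83.1% and 65.5% at the same places.

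The H3K36me3 pattern along genes of 6 to under 12 kb differed accordingly. With a bare region (1936 genes), H3K36me3 was present in 86.6% of genes at 11.25% of their length. It was down to 57.9% at 41.25% and back at 66.7% at 71.25%, where 64.6% of the genes had a bare region. Without one (2865 genes) the share was 93.7%, 83.1% and 65.5% at those places, with no rise after the fall. At 91.25% of the length H3K36me3 was in 27.2% of genes with a bare region and 23.9% of those without. H3K4me3 fell from 88.1% at the first place to 6.92% at 21.25% in genes with a bare region, and from 85.8% to 15.3% in those without. A narrow mark in mid-gene removes a region from the bare class, which lowers the narrow marks there in the first group by construction. The dip in H3K36me3 also follows from the choice of genes, since a bare region beside a marked one in a gene has a gap of at least 800 bp before it. The 2 profiles are a description of the chosen genes.

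Long genes had bare regions far more often. Genes with a bare region had a median length of 7936 bp (quartiles 5782 and 11752 bp), and other genes with H3K36me3 had 3904 bp (quartiles 2668 and 5496 bp). Among genes with H3K36me3 a bare region was present in 1.57% of those under 2 kb and in 3.44% from 2 to under 4 kb. The share went on to 967 of 6456 genes from 4 to under 6 kb, to 32.1% from 6 to under 8 kb and to 49.7% from 8 to under 12 kb. It reached 64.2% from 12 to under 20 kb and 81.0% (interval 77.3 to 84.3) of the 500 genes of 20 kb or longer. A longer gene offers more room for a second region, and how much of the trend that accounts for was not tested.

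At equal length, genes with bare regions had less of their length under H3K36me3. The median share was 58.2% against 72.0% in genes of 4 to under 6 kb, 64.6% against 80.2% from 8 to under 12 kb, and 71.5% against 84.4% from 20 kb on. Summed H3K4me3 was also lower, counted only in genes with H3K4me3 within 1 kb of an end. From 8 to under 12 kb its median, in the gene and within 1 kb, was 1131 bp against 1269 bp. The rule favours this difference, since a region with H3K4me3 is not bare. The gap that splits a region off is itself missing H3K36me3.

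**Figure D4:**
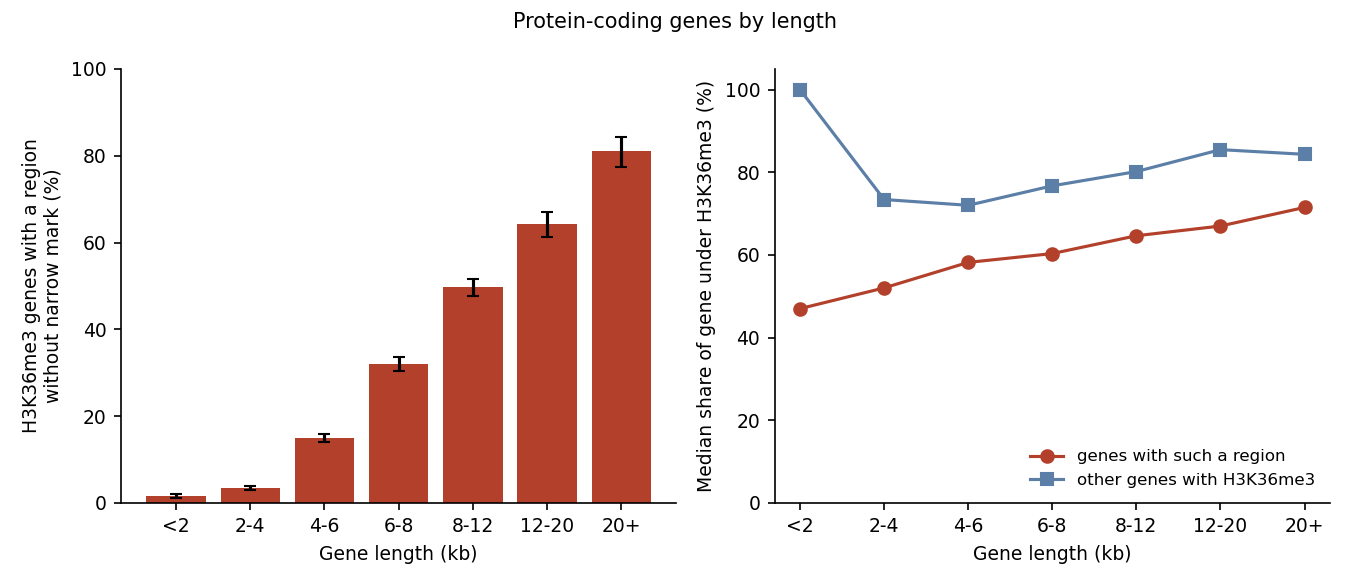
Left, percentage of protein-coding genes with H3K36me3 that hold a bare region, by gene length, with exact 95% intervals, from 1.57% under 2 kb to 81.0% at 20 kb or longer. Right, median share of the gene under H3K36me3, with (red) and without (blue) a bare region; the red points lie below the blue ones in all 7 length classes.

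The largest numbers of bare regions in 1 gene were 15 of 16 H3K36me3 regions in LOC100779257, of 100270 bp, and 13 of 15 in LOC100778359, of 91648 bp. Another, LOC100781560, of 89586 bp, also had 13 of 15. H3K36me3 covered 72.4%, 76.0% and 55.4% of these genes, and they had 847, 1179 and 995 bp of H3K4me3, in or within 1 kb of the gene. LOC100790154, of 66991 bp, stood apart with 11 bare regions among 12 and neither narrow mark in the gene or within 1 kb of it. These genes were chosen after their values were seen.

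Of 2348 protein-coding genes that bear their own symbol, 132 (5.62%) had a bare region. Among groups of 20 or more genes, the clock and photoreceptor genes had the highest share, with bare regions in 7 of 22 and H3K36me3 in 20. The groups were not tested against each other, nor matched for gene length or for the presence of H3K36me3. Of all protein-coding genes with H3K36me3, 81.0% of those of 20 kb or longer held a bare region. The clock genes GIGANTEA, E2 and PRR3A, described below, are of that length. The clock and flowering regulator GIGANTEA had 3 bare regions of 6600, 6000 and 3200 bp, spread over a gene of 25004 bp at 31.0%, 64.2% and 89.8% of its length. Its single region with a narrow mark inside the gene lay at the H3K4me3 end, and 1578 bp of H3K4me3 and 945 bp of H3K56ac were in or near the gene. E2, another GIGANTEA copy, had bare regions of 1600 and 3200 bp at 69.5% and 88.1% of its 21533 bp.

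The pseudo-response regulators, which repress clock genes, were similar in layout. PRR3A, of 22416 bp, had 4 bare regions among 5, the longest of 8000 bp at Gm11:11246801-11254800. PRR3B, of 14806 bp, had bare regions of 5000 and 6000 bp that lay 1000 bp apart and covered 33.8% and 40.5% of the gene. TOC1, a core clock gene, had 1 bare region of 2000 bp at 55.1% of the gene. The phytochrome photoreceptor gene PHYB had 1 of 2000 bp at 73.7%, and PHYE1 1 of 400 bp.

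Histone deacetylase genes had bare regions at 5 of 24, and 23 of the 24 had H3K36me3. For comparison, bare regions were at 19.1% of all protein-coding genes with H3K36me3 and at 5.62% of all those with a symbol. HDA11 was the symbol-bearing gene with the largest share of its length under a single bare region, 70.9%, at Gm11:16401-22600. There the region with narrow marks lay 800 bp from the bare region, and the nearest H3K4me3 was 818 bp away. The sirtuin-type gene SRT4 had 2, of 1400 and 3800 bp, and HDA1, HDA3 and HDA5 had 1 each, of 1200, 1400 and 2000 bp. All 4 of these genes had a neighbouring region at 800 bp.

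Aldehyde dehydrogenases, which oxidise aldehydes to acids, had bare regions at 7 of 48 genes and diacylglycerol kinases, which make phosphatidic acid, at 3 of 11. H3K36me3 was at 25 and 9 of these genes, with median gene lengths of 6791 and 7194 bp. Of all protein-coding genes of 6 to under 8 kb with H3K36me3, 32.1% held a bare region, so these counts single out neither family. In ALDH5F1 the bare region measured 4000 bp and in ALDH7B1 2200 bp, each 1000 bp from its neighbour. ALDH22A1 had 3, of 2400, 1000 and 200 bp. DGK12, DGK10 and DGK11 had 1 each, of 2600, 2200 and 1600 bp.

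Among transcription factors, bare regions were at 6 of 92 bZIP genes, with the TGA factors among them, 3 of 73 MYB, 3 of 61 WRKY and 2 of 33 NF-Y genes. These counts are near the 5.62% of all genes with a symbol. They were at 1 of 37 heat shock factor genes and at none of 41 NAC, 33 LBD or 9 MADS-box genes. Many of these genes had no H3K36me3 to begin with. It was found at 54 bZIP, 30 MYB, 17 WRKY, 20 NF-Y, 19 heat shock factor, 11 NAC, 1 LBD and 1 MADS-box genes. BZIP3 had 56.4% and MYB85 58.4% of the gene under a single bare region. The MADS-box gene with H3K36me3, NMHC5, had a region of 12400 bp that overlapped 1110 bp of H3K4me3 and so was not bare.

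WNK kinase genes had bare regions at 3 of 13, with lengths of 200, 1200 and 2000 bp, and H3K36me3 was at 8 of the 13. In the remaining groups ALMT malate transporter genes had them at 2 of 28 and ammonium, phosphate and aquaporin channel genes at 2 of 68. H3K36me3 was at 6 and 13 of these genes. The share with a bare region was 5.62% over all protein-coding genes with a symbol and 19.1% over all those with H3K36me3. IQD calmodulin-binding protein genes had 1 of 65, although 39 of them had H3K36me3 with a median gene length of 4928 bp. Of 55 phenylpropanoid and isoflavonoid genes, 11 had H3K36me3 and 1 had a bare region. That gene was CHS2, whose record of 97568 bp runs over other genes, and its bare region measured 200 bp. None was found in 85 CRK receptor kinase genes, 43 SWEET sugar transporter genes, 28 auxin carrier genes, 21 terpene synthase genes and 16 nodulin genes. H3K36me3 itself was at 14, 4, 4, 1 and 0 of these.

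Outside the listed groups, the longest bare regions at genes with a symbol were 9200 bp in CYP56 at Gm15:34524001-34533200, 8400 bp in GOS12 at Gm01:47420001-47428400, and 8200 bp in MSH1 at Gm10:35508001-35516200. GOS12 has the name of a Golgi SNARE protein, and MSH1 is a MutS homologue that keeps organelle genomes stable. VAD1 had a bare region of 7600 bp, 50.4% of the gene, and CYP42 one of 6400 bp. The other genes with the largest shares of their length under a bare region were CYP51 (62.4%), ACX1;2 (54.3%), a peroxisomal acyl-CoA oxidase, and HMA8 (54.1%), a metal-transporting ATPase. MAN1 had 48.6% and ACCB-1, a biotin carrier subunit of acetyl-CoA carboxylase, 48.4%.

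**Figure D5:**
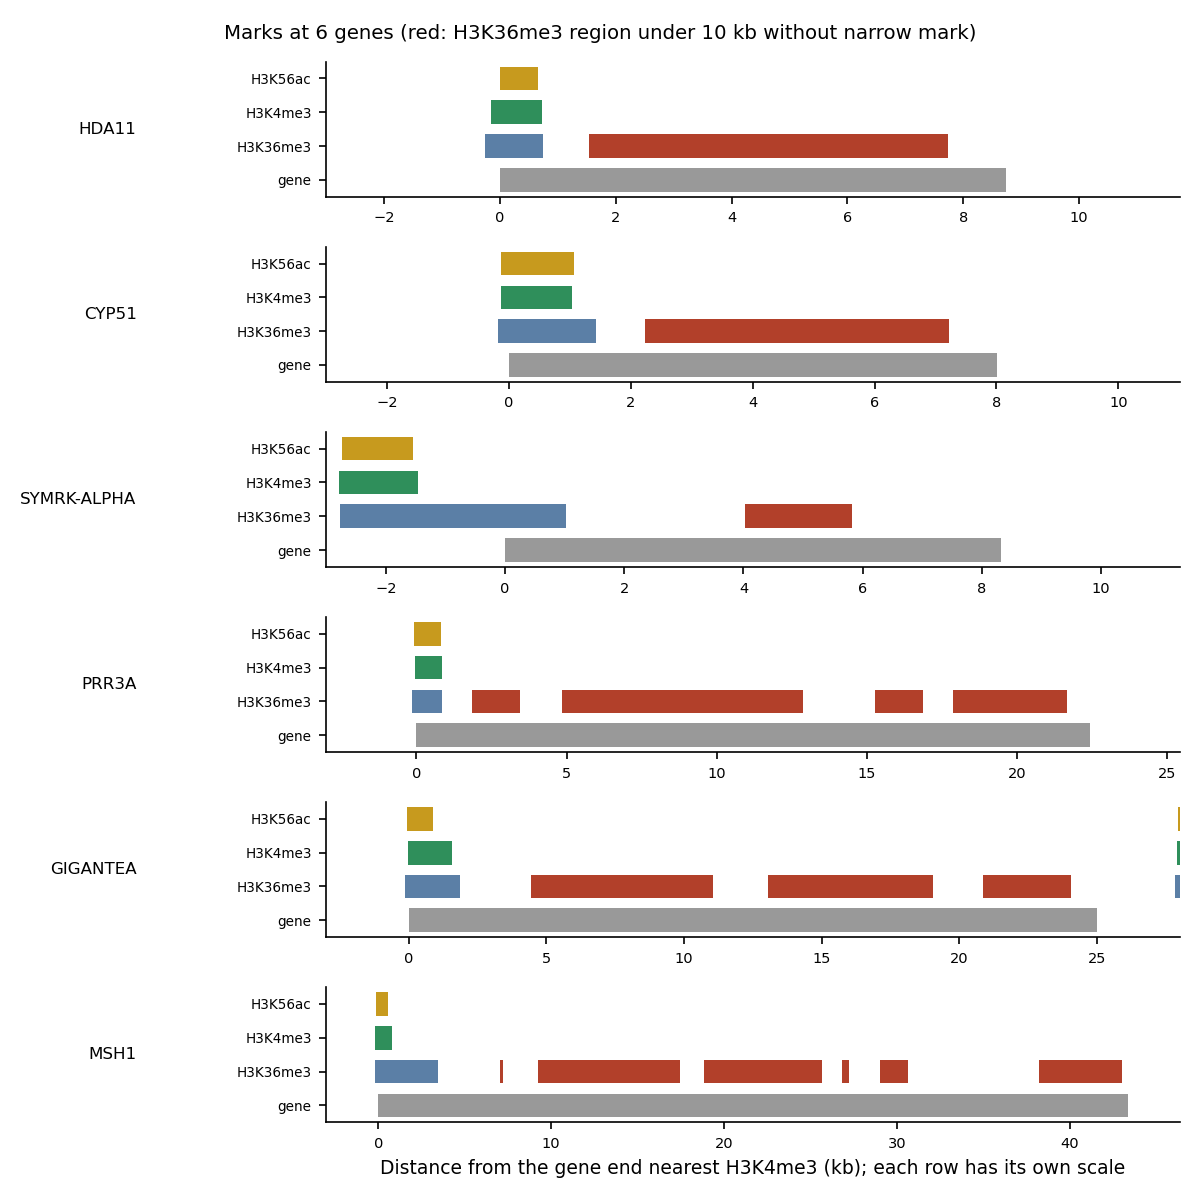
H3K36me3 regions, H3K4me3 peaks and H3K56ac peaks at HDA11, CYP51, SYMRK-ALPHA, PRR3A, GIGANTEA and MSH1, in kb from the gene end nearest H3K4me3, with red for bare regions and blue for H3K36me3 regions with a narrow mark. The narrow marks sit at 1 end on a blue region, and the red regions follow along the gene, 6 of them in MSH1. SYMRK-ALPHA has its narrow marks outside the gene, and beside GIGANTEA a second blue region with narrow marks lies past the far end.

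SYMRK-ALPHA, a receptor kinase gene of root nodule symbiosis with neither narrow mark within 1 kb, had 2 H3K36me3 regions. The bare one, of 1800 bp at Gm01:2010001-2011800, lay inside the gene 5484 bp from H3K4me3. The other region, of 3800 bp, overlapped an end of the gene. Its narrow peaks, with 1316 bp of H3K4me3 and with 1192 bp for H3K56ac, lay more than 1 kb outside.

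A gene with no narrow mark at all was rare among the hosts. Of the 4563 genes with a bare region, 160 (3.51%, interval 2.99 to 4.08) had no H3K4me3 and no H3K56ac in the gene or within 1 kb of it, against 79 of 19372 (0.408%) genes with H3K36me3 and no bare region. The rule favours this class too. Their median length was 4910 bp and the median share under H3K36me3 40.6%, with 63 genes at 50% or more. Those with a symbol were SYMRK-ALPHA, MYB133, with 600 bp of H3K36me3, and PARP3, with 612 bp.

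Bare regions standing alone, with no other H3K36me3 region and no narrow peak at less than 5 kb, numbered 101 of 6723 (interval 1.23 to 1.82%). Over all regions under 10 kb this share was 0.321%, and each of the 101 is bare by definition. With 2 kb in place of 5 kb the share was 14.6%, and with 10 kb it was 0.312%, 21 regions. Without the shorter 50% of the narrow peaks 10.0% of bare regions stood alone, and after joining at 1000 bp 3.55%. Their median length was 1400 bp (quartiles 600 and 2800 bp). Some were small calls, 19 of 400 bp or less, but 17 were 4 kb or longer.

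Most lone regions were still in genes. A protein-coding gene was under 81 of them, in 77 genes with a median length of 12768 bp, and 53 lay in genes of 10 kb or longer. For 42 the same gene had another H3K36me3 region with a narrow mark farther than 5 kb away, so that the distance alone set them apart. In MSH1, of 43361 bp, 5 bare regions followed each other at 1200 to 2000 bp and the last, of 4800 bp at Gm10:35482401-35487200, stood 7600 bp from the next. It was 93.7% of the way along the gene and 21241 bp from H3K4me3. LOC100814762, of 45888 bp, had 9 bare regions, of which the one of 9400 bp stood alone, 32611 bp from H3K4me3.

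For 31 lone regions the protein-coding gene held no other H3K36me3 and had no narrow mark in it or within 1 kb. The longest was Gm17:17715001-17724600, of 9600 bp, which covered the whole of LOC100797545, a gene of 8627 bp, and stood 6200 bp from the nearest H3K36me3 and H3K4me3. LOC100815949, of 21179 bp, had a lone region of 7800 bp over 36.8% of it, and LOC100811773, of 11748 bp, one of 6200 bp over 52.8%. In MYB133, a transcription factor gene of 6269 bp, a lone region of 600 bp covered 9.57% of the gene, 22400 bp from other H3K36me3. Genes given by LOC identifiers here were named after their values were seen.

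By distance to the nearest call of any of the 3 marks, the most remote was a region of 200 bp at Gm14:38707401-38707600 in the pseudogene LOC100793607, with 305200 bp to the next H3K36me3 region and 307079 bp to H3K4me3. The next by that measure was another of 200 bp, in LOC100776957, with 26366 bp to the nearest narrow peak. Nothing lay at less than 20 kb from 5 lone regions in all, LOC121174091 among them with 139600 bp to other H3K36me3 and 20225 bp to H3K56ac. Pseudogenes held 9 lone regions, long non-coding RNA genes 4 and a transcribed pseudogene 1, and 6 had no annotated gene. In the middle 50% of the chromosomes lay 54 of the 101.

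Bare regions in general were somewhat more frequent in the chromosome middle, as a share of the H3K36me3 regions there. They were 25.7% (interval 24.7 to 26.7) of regions under 10 kb in the middle 50% of the extent of the lists and 20.2% (interval 19.7 to 20.7) in the outer parts. Lone ones were 3.00% of bare regions in the middle and 0.955% outside. By chromosome the share of bare regions ran from 18.8% on Gm12 to 26.1% on Gm20. Gene length was not matched in this comparison.

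Other gene types had them less often than protein-coding genes (9.75%), with 1 exception. The types were not matched for gene length or for the presence of H3K36me3. A bare region overlapped 42 of 250 transcribed pseudogenes (16.8%), 113 of 4482 other pseudogenes (2.52%), 85 of 3328 long non-coding RNA genes (2.55%), 17 of 659 microRNA genes (2.58%) and 11 of 448 ribosomal RNA genes (2.46%). It overlapped 5 of 144 genes of other RNAs (3.47%), 6 of 1674 small nucleolar RNA genes (0.358%), 2 of 709 transfer RNA genes (0.282%) and 0 of 133 small nuclear RNA genes (0%). These counts include small genes that lie inside a longer protein-coding gene. As the gene overlapped most, a protein-coding gene was found for 6410 bare regions (95.3%), a pseudogene for 126, a long non-coding RNA gene for 67 and a transcribed pseudogene for 52.

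Outside every annotated gene lay 60 bare regions (0.892%), with a median length of 1200 bp. The nearest gene was a median 1212 bp away (quartiles 322 and 3900 bp) and at most 16321 bp, and for 37 it carried an H3K36me3 region with a narrow mark. Another H3K36me3 region lay within 1 kb of 25 of them (41.7%), against 57.4% of all bare regions. The longest was Gm01:47900201-47907600, of 7400 bp, at 1499 bp from the protein-coding gene LOC106794272 and 10350 bp from H3K4me3. Next came 6200 bp at Gm04:7157601-7163800 and 5800 bp at Gm01:45801-51600. The latter ended 341 bp from the long non-coding RNA gene LOC100808170 and was 48322 bp from either narrow mark.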

How the data were processed

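The authors deposited 1 list of called regions per ChIP-seq sample, with chromosome, start and end in bp and no score or count, so the depth per sample is unknown. Per the submitters' processing notes, Trimmomatic, Bowtie2, Picard, SICER and MACS2 were used. The sources used here do not give their versions or roles, the thresholds, the use of the input or the soybean build. The mark called H3K4me3 is so named in the sample's title and antibody label, whereas the series' design text has H3K4me1 for soybean. H3K36me3 ends, which give the last base counted from 0, were moved by 1 bp. Every region of that list starts and ends on a grid of 200 bp. The maize list and both inputs were not used here.

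Overlaps from 1 bp and distances between edges were computed with Python 3.11.15, numpy 2.4.6, pandas 2.3.3 and bedtools 2.31.1, and checked on simulated intervals. Genes came from the RefSeq table of Glycine_max_v4.0, whose coordinates are not printed. As a check of the unnamed build, 34.0% to 41.4% of H3K4me3 midpoints per chromosome were at most 500 bp from an end of a protein-coding gene, and at most 18.6% did after shifts of 20 or 100 kb. Small build differences would pass this check.

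The members, lists and comparisons were chosen with earlier results of these data known. Named genes were those with their own symbol and the 10 longest members, the 10 largest shares of a gene, and members standing alone, plus 2 genes named in earlier results. Symbol groups were formed by stems of symbols, and 3 symbols of other families were taken out of the clock group. The planned reading of genes by strand was not run, since the table has none.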

Additional observations from a re-analysis of the deposited data

How the results depend on the processing

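Joining regions at most 600 bp apart could change nothing, since no gap is below 800 bp. Of the 45 other values under other settings, 22 lay inside the interval of the reported value or, for the number of regions, within 1.5 times. Counting narrow peaks within 200 bp as overlapping, or dropping the length limit, left all 8 results inside. With the longer 50% of each narrow list there were 10571 bare regions. Then 46.3% had H3K36me3 within 1 kb, 4.10% had H3K4me3 within 1 kb, 53.2% had a companion region with a narrow mark in the gene and 10.0% stood alone. The median place was 55.5% of the gene. With the longer 50% of the H3K36me3 list there were 2531, of median length 3800 bp. The shares were 99.4% in a gene, 28.9% near H3K36me3, 7.23% near H3K4me3, 52.4% with a companion and 6.12% alone. Joining at 1000 bp, a setting chosen after seeing the data, gave 3266 bare regions with a median length of 2000 bp. The shares were then 0% near H3K36me3 (by construction), 1.93% near H3K4me3, 88.0% with a companion and 3.55% alone, and the median place was 68.0%. Standing alone was 14.6% at 2 kb and 0.312% at 10 kb, and 95.6% overlapped a protein-coding gene. The 2 settings that drop shorter calls remove companions and narrow peaks by construction. The reading from the H3K56ac end and from isolated genes was also added after seeing the data. No paired analysis was possible because each mark has 1 library. Weak marks below the callers' unknown thresholds cannot be told from absent ones.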
